A study of Mus musculus with 11 samples.

Results

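The replication-dependent histone genes of the mouse are the genes with symbols of the form Hist1h to Hist4h. They were taken here as every gene of the deposited count table whose symbol begins with Hist1h, Hist2h, Hist3h or Hist4h, which gave 68 of 22619 genes. By symbol, 6 code for the linker histone H1, 18 for H2A, 19 for H2B, 12 for H3 and 13 for H4. The Hist1 cluster on chromosome 13 held 54 of them, the Hist2 cluster on chromosome 3 held 10, the Hist3 cluster on chromosome 11 held 3, and Hist4h4 lies on chromosome 6.

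Gene-level read counts came from 11 RNA-seq libraries of SMB21, a medulloblastoma line from adult mice of the Ptch1tm1Mps/J background that is kept as neurospheres. All libraries therefore carry a mutation of Ptch1, the receptor that holds Hedgehog signalling in check. The groups were parental cells treated for 24 h with sonidegib, an inhibitor of the Hedgehog transducer Smoothened (n = 2), Ofd1-mutant clones (n = 4 libraries from 3 clones), Sufu-mutant clones (n = 2) and untreated parental cells (n = 3). The mutant clones came from a drug resistance screen. Among the Ofd1-mutant libraries, 2 came from clone R14, 1 from R16 and 1 from R25, while the Sufu-mutant libraries came from clones R13 and R1. The Ofd1 protein sits at centrioles and the base of the cilium, and Sufu inhibits the Gli transcription factors. The labels do not say whether the clones were kept in drug when RNA was taken, and each clone differs from the parental line in its own history as well as in the named mutation.

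Replication-dependent histone genes supply the histones that package newly copied DNA. Their mRNAs are made during S phase and usually end not in a poly(A) tail but in a conserved stem-loop, which is bound by the stem-loop binding protein Slbp and just after which the precursor is cut. They are degraded when DNA synthesis stops. Some of these genes can also give polyadenylated mRNAs when transcription runs past the stem-loop to a downstream poly(A) signal. The libraries were made with a kit that captures poly(A) RNA, so the stem-loop form is undersampled and the values below are those of whatever histone RNA was captured. Whether that capture differed between libraries was not tested. In bulk RNA, fewer cells in S phase and less histone RNA per cell also cannot be told apart.

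The stem-loop itself was searched for in the GENCODE M21 transcripts of the genes, as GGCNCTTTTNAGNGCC on the transcript strand. It was present in the longest transcript of 41 of the 68 genes (60.3%) and of 3 of 21119 other genes of the table (0.0142%). Counting every annotated transcript, 42 genes held it, and 26 of these had the core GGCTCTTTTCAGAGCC. The others had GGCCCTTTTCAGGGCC (7 genes), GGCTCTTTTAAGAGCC (6 genes), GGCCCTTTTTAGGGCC (2 genes) and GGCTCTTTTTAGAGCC (1 gene). The sequences below are shown because the results turn on these genes or because they carry another core. Each is given 5′ to 3′ on the transcript strand with the 16-base stem-loop core in capitals and 5 flanking bases on each side.
Hist3h2a: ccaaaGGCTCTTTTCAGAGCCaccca
Hist3h2ba: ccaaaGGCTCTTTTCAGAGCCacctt
Hist1h1c: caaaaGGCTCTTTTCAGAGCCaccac
Hist2h3c1: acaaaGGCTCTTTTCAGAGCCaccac
Hist2h2aa1: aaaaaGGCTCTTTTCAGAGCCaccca
Hist1h2ag: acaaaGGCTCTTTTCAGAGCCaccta
Hist1h2bb: ccaaaGGCTCTTTTAAGAGCCaccca
Hist1h4i: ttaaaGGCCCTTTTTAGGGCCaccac
In GRCm38 they lie at chr11:58955167-58955192 (+) for Hist3h2a, chr11:58949344-58949369 (+) for Hist3h2ba, chr13:23739507-23739532 (+) for Hist1h1c and chr3:96247322-96247347 (+) for Hist2h3c1. Hist2h2aa1 has its stem-loop at chr3:96246027-96246052 (+), Hist1h2ag at chr13:22042478-22042503 (-), Hist1h2bb at chr13:23747198-23747223 (+) and Hist1h4i at chr13:22040961-22040986 (-). All lie in the annotated transcript of the gene, and the reads themselves were aligned to another build, mm9.

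The annotated transcript ends differed between the genes. In 21 genes the transcript stopped within 100 bases after the stem-loop, in 21 it ran further, and in 26 no match was found. After the stem-loop the annotated transcript of Hist1h2ag went on for 23 bases, that of Hist2h2aa1 for 35, that of Hist3h2ba for 169, that of Hist1h4i for 330, that of Hist1h1c for 840, that of Hist2h3c1 for 1167 and that of Hist3h2a for 1643. A poly(A) signal, AATAAA or ATTAAA in the last 50 bases of the longest transcript, was present in 16 of the 68 genes (23.5%), against 67.3% of the other genes. With every annotated transcript counted, 17 histone genes had such a signal, and these 17 held 71.3% of the summed histone level. The 21 genes whose transcript stops near the stem-loop held 11.5% of it. A match is a description of the annotation, and a missing match does not show that a gene lacks a stem-loop. Genes without a match include some with very short annotated transcripts, such as Hist1h4k at 312 bases and Hist1h2bl at 381. The deposited counts do not show where a read lay in a transcript.

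**Figure D1:**
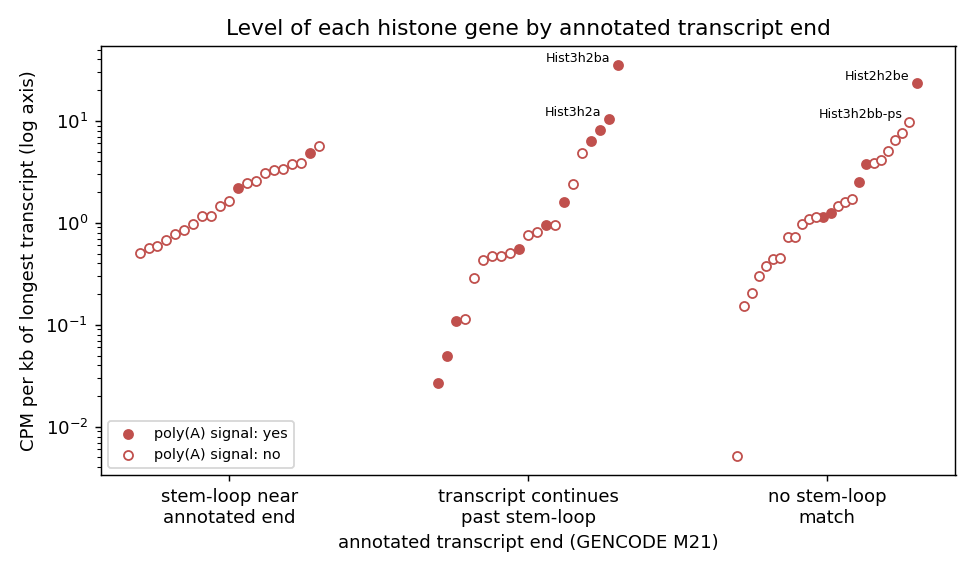
Each point is 1 of the 68 histone genes, grouped by its annotated transcript end (x axis) and placed by its level in CPM per kb of longest transcript, as the mean of the 4 group means (y axis, log scale), with filled points for genes with a poly(A) signal. Hist3h2ba at 34.9 and Hist2h2be at 23.4 CPM per kb, both with a signal, stand highest, and no gene whose transcript stops near its stem-loop exceeds 5.62.

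Histone RNA was a small part of every library, and a few genes held most of it. The 68 genes took between 0.0127% and 0.0301% of the counts of a library, with totals of 24308451 to 38241595 counts. Levels are given as CPM, read counts scaled to a common library size with TMM factors, and 30 of the 68 genes reached 1 CPM as a mean of the 4 group means. Hist2h2be, an H2B gene, held 31.1% of the summed level, Hist3h2a, an H2A gene, 11.3% and Hist3h2ba, an H2B gene, 10.9%. Together they held 53.2%, and the 10 highest genes held 73.3%. The other 7 of those 10 were Hist1h1c, Hist1h2bc, Hist1h4i, Hist3h2bb-ps, Hist2h2aa1, Hist1h2bg and Hist2h3c1. In CPM per kb of the longest transcript, a scale on which genes can be compared, Hist3h2ba stood at 34.9, Hist2h2be at 23.4, Hist3h2a at 10.4 and Hist3h2bb-ps, which the annotation lists as a processed pseudogene, at 9.84.

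The near-identical sequence of these genes limits what a single count can say. With windows of 75 bases, the read length, 60 of the 68 genes shared at least 1 window with another histone gene of the set, and 27 shared at least 50% of their windows. Hist1h2bq and Hist1h2br had the same count in all 11 libraries, 947 in total for each. Hist1h4c and Hist1h4j, and likewise Hist1h2ao and Hist1h2ap, stayed within 3 counts of each other in every library. The search covered the set and annotated genes with other symbols. Any Hist1h to Hist4h gene absent from the count table was left out. Hist2h2be shared none of its windows with the genes searched. Hist1h1c shared 6.7% with other histone genes of the set and none with the genes searched outside it. Hist3h2a shared 0.8% within the set, but 635 of its 2072 windows also occurred in an annotated gene outside it. Hist3h2bb-ps shared 19.2% of its windows with Hist3h2ba, which shared 13.9% of its own in return, so their counts may not be separate. Hist2h2aa1 shared 88.7% within the set and Hist1h2ap 92.6%, and all 1751 windows of Hist2h3c1 also occurred in another annotated gene outside the set. The sources used here do not give the rule by which the authors assigned shared reads.

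The labels were checked against other genes of the same table. Ofd1 stood at 9.27 to 23.4 CPM in the Ofd1-mutant clones, against 35.4 to 42.9 CPM in parental cells, and Sufu at 2.76 CPM in R13 and at 17.7 CPM in R1, against 27.7 to 29.6 CPM in parental cells. These levels do not separate the groups on their own. Sufu stood at 19.2 CPM in R25 and lower in the other Ofd1-mutant libraries, so the 17.7 CPM of R1 lies inside their range. Sonidegib replicate 2 had Ofd1 at 23.4 CPM and Sufu at 5.60 CPM, both below all parental libraries, whereas replicate 1 had Ofd1 above all of them and Sufu at 24.8 CPM. Gli1, a Hedgehog target, stood at 7.68 and 8.82 CPM after sonidegib, against 220 to 243 CPM in parental cells. All 7 markers of granule cell progenitors and Hedgehog medulloblastoma reached 1 CPM, while none of the 4 microglial and none of the 4 fibroblast markers did. Of the 3 astrocyte markers, Gfap alone reached 1 CPM, and the list summed to 101 and 106 CPM after sonidegib, against 14.1 to 35.6 CPM in parental cells. Of 5 oligodendrocyte markers 2 reached 1 CPM, of 4 endothelial markers 1, and of 5 male germ cell markers 2, with Ddx4, Dazl and Tnp1 below it. The part of these markers in the histone values was not tested.

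No histone gene passed the test in any comparison, so each value below is a level or an estimated difference and not a called change. The test was edgeR's quasi-likelihood test over all genes with Benjamini-Hochberg adjustment and a threshold of 0.05. It left 57 histone genes to test after the filter on low counts for sonidegib against parental cells, 57 for Sufu-mutant against parental, 60 for Ofd1-mutant against parental and 60 for Ofd1-mutant against Sufu-mutant. In the same comparisons the test called 0.0652% of 13809 genes, 0% of 13854, 0.363% of 13779 and 0.00713% of 14026, so few genes of any kind passed. There were 7 histone genes with too few counts for any comparison: Hist1h1a, Hist1h1t, Hist1h2aa, Hist1h2af, Hist1h2ak, Hist2h4 and Hist4h4, with 1 to 63 counts each over all 11 libraries. Hist1h1t and Hist1h2aa, known from testis, had 7 counts and 1 count.

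The summed level of the 68 genes varied widely within the sonidegib and Sufu-mutant groups. It was 136 and 308 CPM in the sonidegib libraries, and 245, 188, 202 and 264 CPM in the Ofd1-mutant libraries of R14, R14, R16 and R25. It was 225 CPM in Sufu-mutant R13 and 135 CPM in R1, and 130, 175 and 187 CPM in parental cells. One sonidegib library lay low in the parental range and the other above it, and the Sufu-mutant clones overlapped the parental libraries. Every Ofd1-mutant library lay above all parental libraries, but the second R14 library did so narrowly, at 188 against 187 CPM. That order depends on the scaling. As a share of counts, the second R14 library, at 0.0187%, was below parental replicate 3, at 0.0189%. Group means were 222 ± 122 CPM for sonidegib (SD, n = 2), 225 ± 35.6 for Ofd1 mutants (SD, n = 4), 180 ± 63.4 for Sufu mutants (SD, n = 2) and 164 ± 29.9 for parental cells (SD, n = 3).

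**Figure D2:**
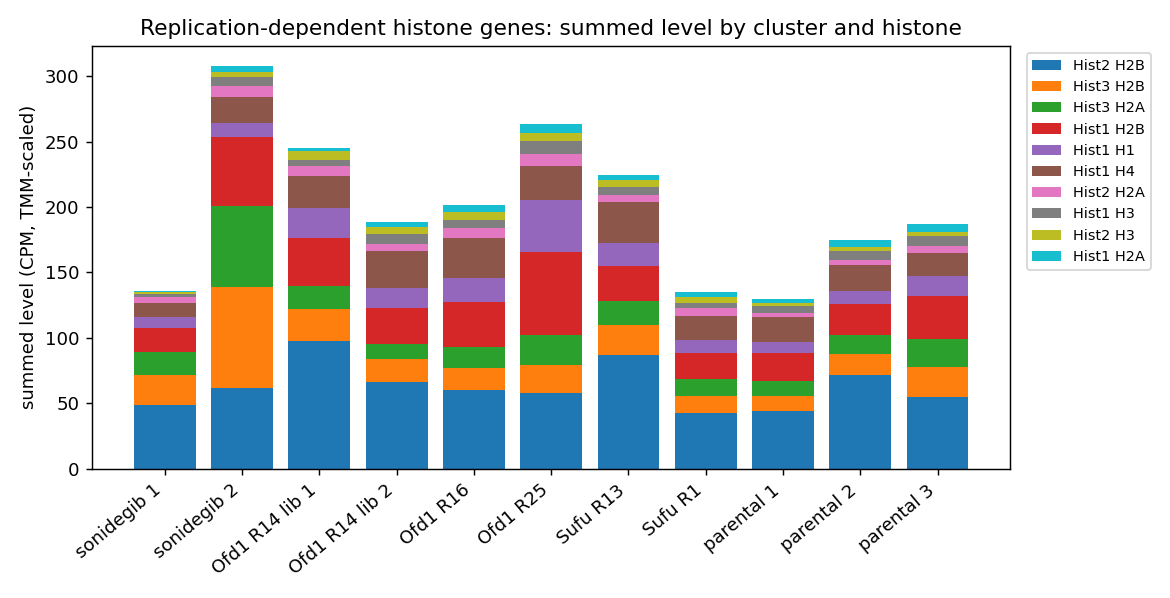
Stacked bars give the summed level of the histone genes in each library (y axis, CPM of the TMM-scaled library size), split by cluster and histone, with Hist2 H4 and Hist4 H4, under 1 CPM in all libraries, left out. Sonidegib replicate 2 reaches 308 CPM with a large Hist3 part, and sonidegib replicate 1 stands at 136 CPM.

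Sonidegib for 24 h was compared with untreated parental cells to ask how the histone genes behave when Hedgehog signalling is blocked. The treated replicates did not show the same pattern. In replicate 1, 50 of the 66 histone genes with at least 10 counts in all lay below every parental library and 3 lay above, where 26.1% of all 16143 such genes lay below and 29.6% above. In replicate 2, 12 lay below and 27 above, where 34.7% of all genes lay below and 39.7% above.

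The summed levels of H2A, H2B, H3 and H4 in the Hist1 cluster were each lowest in sonidegib replicate 1. The H2B genes of the cluster nevertheless had mostly positive estimates, with replicate 2 high. Summed over 13 genes, Hist1 H2A stood at 0.667 and 4.47 CPM after sonidegib, against 3.42, 5.92 and 5.67 CPM in parental cells. Those sums rest on 20 and 150 counts in the treated libraries, against 108, 223 and 192 in parental ones. Replicate 1 was below all parental libraries and replicate 2 was within their range.

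The 9 Hist1 H3 genes followed the same order, at 1.67 and 6.38 CPM after sonidegib, against 5.44, 6.85 and 7.62 CPM in parental cells. The 11 Hist1 H4 genes summed to 10.1 and 19.8 CPM after sonidegib, against 19.5, 19.7 and 17.3 CPM in parental cells. Replicate 1 was again below the parental range, while replicate 2 was inside it for H3 and just above it for H4. The log2 fold change was negative for all 9 tested Hist1 H2A genes (median -1.11), all 9 Hist1 H3 genes (median -0.74) and all 11 H4 genes (median -0.32). Over all genes tested the median was 0.04. The 15 Hist1 H2B genes summed to 18.4 and 52.7 CPM after sonidegib, against 21.1, 23.5 and 32.4 CPM in parental cells. Replicate 1 was below all parental libraries and replicate 2 above them, and 12 of 14 tested Hist1 H2B genes had positive log2 fold changes (median 0.25).

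The largest negative estimates after sonidegib belonged to Hist1h1d, a linker histone gene, and to the H2A genes Hist1h2ai and Hist1h2ah. Hist1h1d stood at 0.167 and 0.358 CPM after sonidegib, against 0.538, 0.876 and 0.827 CPM in parental cells. Both treated libraries were below all parental ones, on 5 and 12 counts, and the log2 fold change was -1.50 ± 0.62 (SE) with an edgeR adjusted p of 0.355. Hist1h2ai had 1 and 9 counts after sonidegib, against 9, 18 and 14 in parental cells, and a log2 fold change of -1.35 ± 0.84 (edgeR adjusted p 0.468). Hist1h2ah had 1 and 11 counts after sonidegib, against 9, 19 and 19 in parental cells, and a log2 fold change of -1.29 ± 0.88 (edgeR adjusted p 0.496). For both H2A genes the estimate leans on sonidegib replicate 1, since without it the log2 fold changes were -0.60 and -0.51, and without replicate 2 they were -3.43 and -3.63.

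The Hist3 genes went the other way and lay highest in sonidegib replicate 2. Hist3h2a stood at 17.8 and 62.1 CPM after sonidegib, against 11.9, 14.8 and 22.0 CPM in parental cells. Hist3h2ba stood at 18.0 and 62.9 CPM after sonidegib, against 9.21, 13.2 and 19.3 CPM in parental cells. Hist3h2bb-ps stood at 4.71 and 14.5 CPM after sonidegib, against 1.87, 2.39 and 2.95 CPM in parental cells. Replicate 2 was above every other library of the study for all 3 genes, whereas replicate 1 was above all parental libraries for Hist3h2bb-ps alone.

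The log2 fold changes of the Hist3 genes after sonidegib were 1.98 ± 0.54 (SE) for Hist3h2bb-ps, 1.52 ± 0.54 for Hist3h2ba and 1.28 ± 0.52 for Hist3h2a, with edgeR adjusted p of 0.212, 0.311 and 0.352. DESeq2 called Hist3h2bb-ps alone among the histone genes, with an adjusted p of 0.0140, where it called 5.24% of all genes. The size depends on the library: without sonidegib replicate 2 the log2 fold changes were 0.95, 0.35 and 0.11. Without sonidegib replicate 1 they were 2.54, 2.12 and 1.88. Each of these fits leaves 1 treated library, so only the estimates are given. Outside the Hist3 cluster, Hist2h2aa1 was the other tested histone gene with both treated libraries above all parental ones. It stood at 3.14 and 4.89 CPM after sonidegib, against 1.65, 2.02 and 2.81 CPM in parental cells.

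Over the 57 histone genes tested after sonidegib, 19 log2 fold changes were positive and 38 negative, with a median of -0.32. The median was 0.036 over 63 tested genes without sonidegib replicate 1 and -0.98 over 61 without replicate 2. At an unadjusted p under 0.05 edgeR gave 3 higher histone genes (5.26%), where it gave 7.18% of all genes, and 1 lower (1.75%), where it gave 6.86%. The treated libraries did not overlap the parental ones for 2 histone genes that were higher, against 17.9% of all genes, and for 9 that were lower (15.8%), against 16.3% of all genes. These shares are at or below those of all genes.

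Other genes tied to DNA replication were set beside the histone genes. Of 35 S phase genes all 35 had a negative log2 fold change after sonidegib, with a median of -1.26, and 2 passed the test: Cdc6, which loads the replicative helicase (-2.12 ± 0.22, edgeR adjusted p 0.0411), and Exo1, an exonuclease of DNA repair (-1.95 ± 0.20, edgeR adjusted p 0.0411). The median deviation of these 35 genes from parental cells was -1.30 and -1.29 in sonidegib replicates 1 and 2, and -0.15 to 0.08 in parental libraries. The replicates thus had like values for S phase genes. The median deviation of the 66 histone genes was -0.51 in replicate 1 and 0.06 in replicate 2.

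The histone processing machinery was examined beside its substrates. Slbp, which binds the stem-loop, stood at 74.5 and 109 CPM after sonidegib, against 127, 125 and 116 CPM in parental cells, a log2 fold change of -0.43 ± 0.23 (edgeR adjusted p 0.421). None of 18 genes for 3′ end processing passed the test, with 6 positive and 12 negative log2 fold changes. Within it the largest were Casp8ap2, a part of the histone locus body, at -1.07, and Lsm11, a part of the U7 particle that guides the cut, at -0.88. Casp8ap2 stood at 72.7 and 34.9 CPM after sonidegib, against 123, 120 and 95.2 CPM in parental cells. Lsm11 stood at 16.1 and 10.9 CPM, against 26.3, 27.5 and 20.4 CPM. Both were lower in replicate 2, and the part of transcript length in these estimates was not tested. Of 10 decay genes none passed, and Upf1, a helicase of mRNA decay, had -0.97. Of 20 genes for histone supply and deposition none passed and 18 were negative, among them Chaf1a, a subunit of the chromatin assembly factor CAF-1, at -1.49 ± 0.20 (edgeR adjusted p 0.0847), the chaperone gene Asf1b at -1.46 and Tonsl at -1.37. Replication-independent variants, whose mRNAs are mostly polyadenylated, had 6 positive and 6 negative log2 fold changes among 12 tested, and none passed.

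Among those variants H3f3a, a gene for H3.3, stood at 1111 and 3559 CPM after sonidegib, against 1104, 1020 and 1321 CPM in parental cells. Replicate 2 was the high library, as for the Hist3 genes.

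Sonidegib replicate 2 also had higher levels of short transcripts in general, which was set beside the histone values. Deviations here are differences of log2(CPM + 0.5) from the median of the 3 parental libraries. Other genes were kept if they averaged 1 CPM or more over the 11 libraries, and the 59 of them whose longest transcript has at most 500 bases had a median deviation of -0.01 in replicate 1 and 0.92 in replicate 2. For the 387 genes above that length and up to 1000 bases these values were 0.01 and 1.14, and for the 4734 genes over 4000 bases -0.01 and -0.44. In the other 9 libraries the class of at most 500 bases lay between -0.20 and 0.12. In replicate 2, 78.0% of the 59 very short genes lay above the parental median. These 59 include microRNA and small nucleolar RNA genes, so the class is not made of mRNA genes alone. Their deviations in replicate 2 ran from -4.18 for Mir5114 to 2.15 for Tmsb15b1. The 80 ribosomal protein genes, short and polyadenylated, had a median deviation of 0.03 in replicate 1 and 1.02 in replicate 2.

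Histone genes are mostly short, and their deviations were set beside those of other short genes. Among the 31 histone genes that averaged 1 CPM or more over the 11 libraries, the median deviation was -0.35 in replicate 1 and 0.46 in replicate 2. For the 12 of them with at most 500 bases it was -0.51 in replicate 1 and 0.19 in replicate 2, so both were below the -0.01 and 0.92 of other very short genes. With the length trend of each library removed, the median deviation of the 31 genes was -0.26 in replicate 1 and -0.24 in replicate 2, and that of the 12 was -0.49 and -0.52. After this step these medians were alike in the treated replicates. They lay below the parental ones, which ran from -0.04 to 0.01 for the 12 genes. Parental medians are held near 0 because deviations are taken from the same 3 libraries. Summed levels still differed between replicates 1 and 2, at 142 and 203 CPM over all 68 genes. Hist1 H2A stood at 0.705 and 2.42 CPM, Hist1 H2B at 19.5 and 31.8 CPM and Hist1 H3 at 1.82 and 3.36 CPM. Hist1 H4 stood at 11.1 and 10.2 CPM. The median log2 fold change of the 57 tested histone genes was -0.84 with the trend removed and -0.32 without. No test was made of this difference.

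The Hist3 genes had smaller estimates by the same measure, all still positive. With the length trend removed their log2 fold changes were 1.31 for Hist3h2bb-ps, 0.84 for Hist3h2ba and 1.02 for Hist3h2a, against 1.98, 1.52 and 1.28 without that step. Their median deviation was then 0.43 in sonidegib replicate 1 and 1.27 in replicate 2, against -0.34 to 0.34 in parental libraries. Replicate 2 was above every other library, whereas replicate 1 was below the first R14 library (0.56), R25 (0.50) and Sufu-mutant R13 (0.50). Without that step, 1 of the 59 other very short genes deviated more than Hist3h2a in replicate 2, and none deviated more than Hist3h2ba or Hist3h2bb-ps. Hist3h2a, however, is annotated at 2146 bases, and only Hist3h2bb-ps of the 3 genes, at 465 bases, falls in the very short class.

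**Figure D3:**
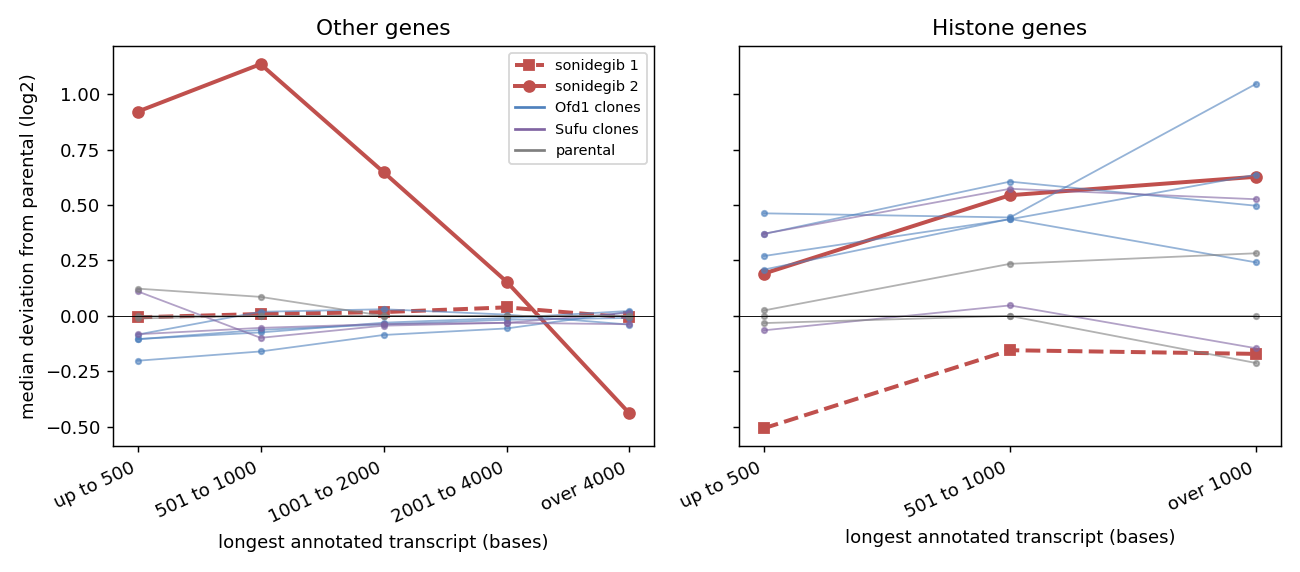
Median deviation from the parental libraries (y axis, log2) by longest annotated transcript (x axis, bases), for other genes on the left and the 31 histone genes of at least 1 CPM on the right, with 1 line per library. Sonidegib replicate 2 reaches 0.92 for other genes of at most 500 bases and 0.19 for histone genes of that length, while sonidegib replicate 1 stands at -0.01 and -0.51.

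Ofd1-mutant clones were compared with parental cells to ask how the genotype selected in the screen relates to histone RNA. Most histone genes had higher estimates in the clones. Of 60 tested genes, 48 had a positive and 12 a negative log2 fold change, with a median of 0.44, against 0.0079 over all genes. Without R25 the median was 0.25 over 58 tested genes. In clone R25, 54 of 66 genes lay above all parental libraries and 2 below, where 29.6% of all genes lay above and 29.0% below. In R16, 32 lay above and 5 below, where 29.6% and 26.0% of all genes did. The R14 libraries had 35 above and 16 below in replicate 1 and 23 above and 8 below in replicate 2, where 26.1% and 25.4% of all genes lay above and 25.1% and 24.0% below.

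The H4 genes were the most even of the classes. Their Hist1 sum was 24.5, 28.2, 30.4 and 25.9 CPM in the Ofd1-mutant libraries, against 19.5, 19.7 and 17.3 CPM in parental cells. Every Ofd1-mutant library was above every parental library. All 11 tested H4 genes had log2 fold changes between 0.44 and 0.65 (median 0.56), and the smallest edgeR adjusted p among them was 0.313. H4 genes share reads with one another, so these are not 11 independent values. Hist1h4i, the highest of them, stood at 5.87, 6.0, 6.66 and 5.09 CPM in Ofd1 mutants, against 4.21, 4.89 and 4.02 CPM in parental cells, with no overlap and a log2 fold change of 0.44 ± 0.21 (edgeR adjusted p 0.398).

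By cluster, the Hist2 genes had the largest median in the Ofd1 mutants, and Hist2h3c1 led them. Hist2h3c1, an H3 gene, stood at 5.19, 3.19, 4.36 and 4.33 CPM in the mutants, against 1.39, 1.62 and 2.16 CPM in parental cells. Its groups did not overlap, and the log2 fold change was 1.31 ± 0.30 (SE) with an edgeR adjusted p of 0.111. All 8 tested Hist2 genes had positive values, with a median of 0.89. Hist2h2be, the most abundant histone gene, had 0.32 ± 0.23 (edgeR adjusted p 0.600), at 97.2, 66.3, 60.0 and 57.2 CPM in the mutants, against 43.5, 71.6 and 54.8 CPM in parental cells, and its groups overlapped.

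Hist1h1c and Hist1h2bc were highest in clone R25. Hist1h1c, a linker histone gene, stood at 20.3, 13.1, 15.7 and 34.9 CPM in the Ofd1 mutants, against 6.49, 7.89 and 13.2 CPM in parental cells. The lower R14 library fell just below the highest parental one, and the log2 fold change was 1.20 ± 0.39 (edgeR adjusted p 0.220). Hist1h2bc, an H2B gene, stood at 12.1, 7.06, 9.20 and 19.6 CPM in the mutants, against 4.24, 4.91 and 8.95 CPM in parental cells, with a log2 fold change of 1.00 ± 0.41 (edgeR adjusted p 0.323). Without R25 the log2 fold changes of Hist1h1c and Hist1h2bc were 0.84 and 0.65. DESeq2 called Hist2h3c1 (adjusted p 0.00127) and Hist1h1c (adjusted p 0.0370) and no other histone gene, where it called 5.55% of all genes.

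Among the histone classes split by cluster, Hist1 H2A alone had a negative median log2 fold change in the Ofd1 mutants. Its 13 genes summed to 2.08, 3.81, 5.01 and 6.75 CPM in the mutants, against 3.42, 5.92 and 5.67 CPM in parental cells. The first R14 library was below the parental range and R25 above it, and 8 of 10 tested genes had negative log2 fold changes (median -0.20). The 3 largest negative values of the comparison were all H2A genes: Hist1h2ah at -0.44, Hist1h2ap at -0.33 and Hist1h2ag at -0.29, each with an SE above its size. Without the first R14 library those of Hist1h2ap and Hist1h2ag turned to 0.023 and 0.058, and without parental replicate 2 that of Hist1h2ag was 0.016. Hist1h2ag had 3, 19, 22 and 28 counts in the mutants, against 11, 34 and 24 in parental cells. All 19 tested H2B genes had positive log2 fold changes (median 0.50), and 9 of 12 H3 genes did. Of the 9 Hist1 H3 genes 6 were positive, with a median of 0.03. Hist1 H3 summed to 4.16, 7.71, 6.44 and 9.55 CPM in the mutants, against 5.44, 6.85 and 7.62 CPM in parental cells. The first R14 library was again below the parental range, and the second R14 library and R25 were above it.

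Read against all genes, the Ofd1-mutant libraries lay entirely above the parental ones for 15 of 60 histone genes (25%), where 6.42% of all genes did so, and entirely below for none, where 6.98% did. The 15 were 10 Hist1 H4 genes with Hist2h2aa1, Hist2h2aa2, Hist2h3b, Hist2h3c1 and Hist2h3c2. They share reads, so they are fewer than 15 separate observations. At an unadjusted p under 0.05 edgeR gave 8 higher histone genes (13.3%), where it gave 7.58% of all genes, and 0 lower, where it gave 6.20%. No S phase gene passed the test (22 of 35 positive, median 0.11), nor did Slbp (-0.09 ± 0.11, edgeR adjusted p 0.776). Of the genes for 3′ end processing, decay, supply and replication-independent variants none passed. The largest estimate was 0.85 for Ubn1, a part of the H3.3 chaperone complex. Ubn1 stood at 151, 133, 140 and 65.1 CPM in the Ofd1 mutants, against 68.2, 65.0 and 70.5 CPM in parental cells. Its level in R25 was thus within the parental range. Of 80 ribosomal protein genes 73 had negative log2 fold changes (median -0.27), and Rpl41 alone passed the test (-1.01, edgeR adjusted p 0.0246). The 59 other very short genes had median deviations of -0.20 to -0.08 in the Ofd1-mutant libraries.

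**Figure D4:**
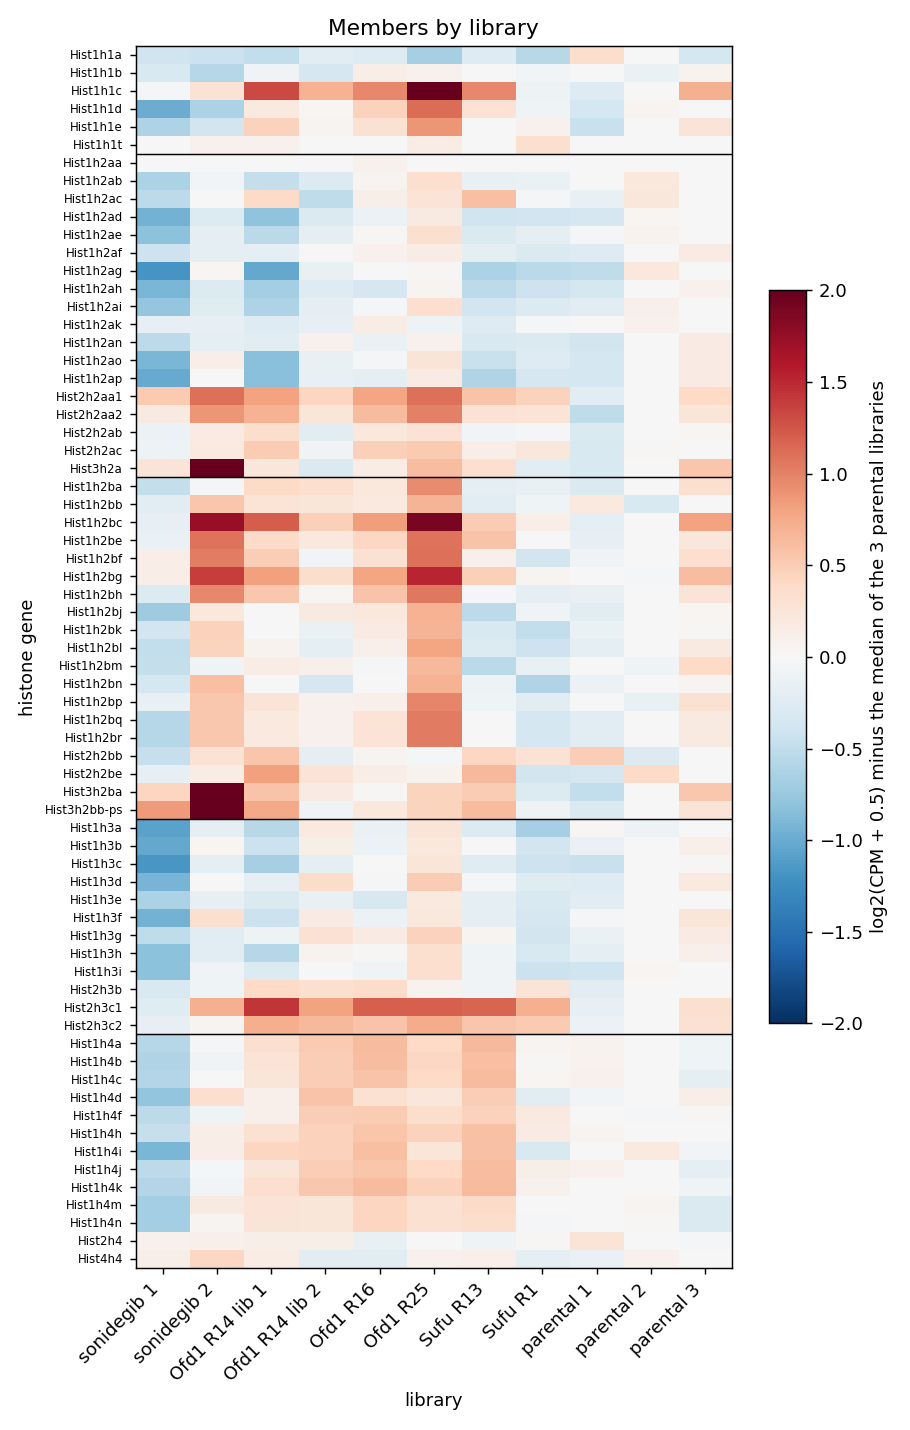
Colours give log2(CPM + 0.5) minus the median of the 3 parental libraries for each histone gene (rows) in each library (columns, with sonidegib on the left and parental cells on the right). Sonidegib replicate 1 is low for 50 of the 66 genes with at least 10 counts and clone R25 high for 54 of them, relative to all parental libraries.

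The Sufu-mutant clones differed from each other. In R13, 23 of 66 genes lay above all parental libraries and 16 below, where 27.5% and 26.3% of all genes did. In R1, 10 lay above and 29 below, where 29.7% and 30.3% did. The Hist1 H4 genes summed to 30.7 CPM in R13 and 18.8 CPM in R1, against 19.5, 19.7 and 17.3 CPM in parental cells. R13 was above the parental range and R1 within it. Of 57 genes tested against parental cells, 28 had positive and 29 negative log2 fold changes, with a median of -0.03, against 0.0043 over all genes. The median was -0.36 over 61 tested genes without R13 and 0.25 over 50 without parental replicate 3, so these medians are not over the same genes.

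By class, the estimates in Sufu mutants were positive for all 11 H4 genes (median 0.47) and all 8 Hist2 genes (median 0.53). They were negative for 8 of 9 Hist1 H2A genes (median -0.69), for all 9 Hist1 H3 genes (median -0.27) and for 11 of 14 Hist1 H2B genes (median -0.25). Hist2h3c1 stood at 4.25 and 2.98 CPM in the Sufu mutants, against 1.39, 1.62 and 2.16 CPM in parental cells, with a log2 fold change of 1.08 ± 0.41 (SE) and an edgeR adjusted p of 0.485. Both clones were above all parental libraries, as they were for Hist2h3c2 (1.20 and 1.18 CPM in Sufu mutants, against 0.570, 0.664 and 0.945 CPM in parental cells; log2 fold change 0.72) and for Hist2h2ac (log2 fold change 0.63). The largest negative values were those of the H2A genes Hist1h2ag (-1.07 ± 0.64, edgeR adjusted p 0.636), Hist1h2ap (-1.03) and Hist1h2ah (-0.97). Hist1h2ag had 7 and 8 counts in the mutants, against 11, 34 and 24 in parental cells.

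The mutant libraries lay entirely above the parental ones for 9 of 57 histone genes (15.8%), where 12.8% of all genes did, and entirely below for 10 (17.5%), where 13.9% did, shares close to those of all genes. At an unadjusted p under 0.05 edgeR gave 1 higher histone gene, Hist2h3c1, where it gave 4.93% of all genes, and 0 lower, where it gave 4.75%. DESeq2 called none, where it called 2.19%. Slbp had a log2 fold change of -0.21 ± 0.19 (edgeR adjusted p 0.744). None of the genes of the other histone lists passed, and Cdc73, listed with 3′ end processing and a part of the Paf1 elongation complex, had the largest estimate at -1.04. S phase genes were negative in 33 of 35 cases (median -0.22), and none passed.

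The Ofd1 and Sufu mutants were compared directly, since both arose in the screen and the parental libraries do not enter this contrast. Estimates were positive for 57 of 60 histone genes, with a median of 0.40, against -0.0033 over all genes. The H2B genes had the largest class median. The Hist1 H2B sum was 36.8, 27.5, 34.1 and 63.8 CPM in Ofd1 mutants, against 26.2 and 20.4 CPM in Sufu mutants. Each Ofd1 library was above both Sufu clones, R25 by far the most, and 18 of 19 H2B genes had positive log2 fold changes (median 0.76). For H4 the median was 0.11, with Ofd1 sums of 24.5 to 30.4 CPM inside the Sufu range of 18.8 and 30.7 CPM.

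The largest estimates between the mutants came from low counts. Hist1h2bm, an H2B gene, had 12, 11, 8 and 28 counts in Ofd1 mutants, against 1 and 5 in Sufu mutants, and a log2 fold change of 1.74 ± 0.80 (edgeR adjusted p 0.581). Hist1h2ba, known as a testis H2B gene, stood at 0.963, 0.898, 0.780 and 1.63 CPM in Ofd1 mutants, against 0.481 and 0.504 CPM in Sufu mutants, with a log2 fold change of 1.10 ± 0.49 (edgeR adjusted p 0.572). Hist1h2bh had 0.97 ± 0.47 (edgeR adjusted p 0.589). The groups did not overlap for these 3 genes. The 3 negative values were -0.48 for Hist2h2bb, -0.37 for Hist1h2ac and -0.01 for Hist1h1b, each smaller than its SE. That of Hist1h2ac was 0.21 without Sufu R13, and that of Hist1h1b was 0.017 when libraries were scaled by total counts.

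The Ofd1 libraries lay entirely above the Sufu ones for 10 of 60 histone genes (16.7%), all of them H2B, where 8.74% of all genes did. They lay entirely below for none, where 9.50% of all genes did. The 10 include Hist1h2bq and Hist1h2br, which had the same count in all 11 libraries. All 10 share windows with other histone genes, so they are fewer than 10 separate observations. At an unadjusted p under 0.05 edgeR gave 0 histone genes in either direction, where it gave 4.26% of all genes as higher and 4.68% as lower, and DESeq2 called 0, where it called 1.99%. S phase genes were positive in 33 of 35 cases (median 0.29) and mitosis genes in 19 of 20 (median 0.15), and none passed. Slbp had 0.10 ± 0.18 (edgeR adjusted p 0.890). Mcm6, a subunit of the replicative helicase, had the largest S phase value at 1.00 (edgeR adjusted p 0.288).

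**Figure D5:**
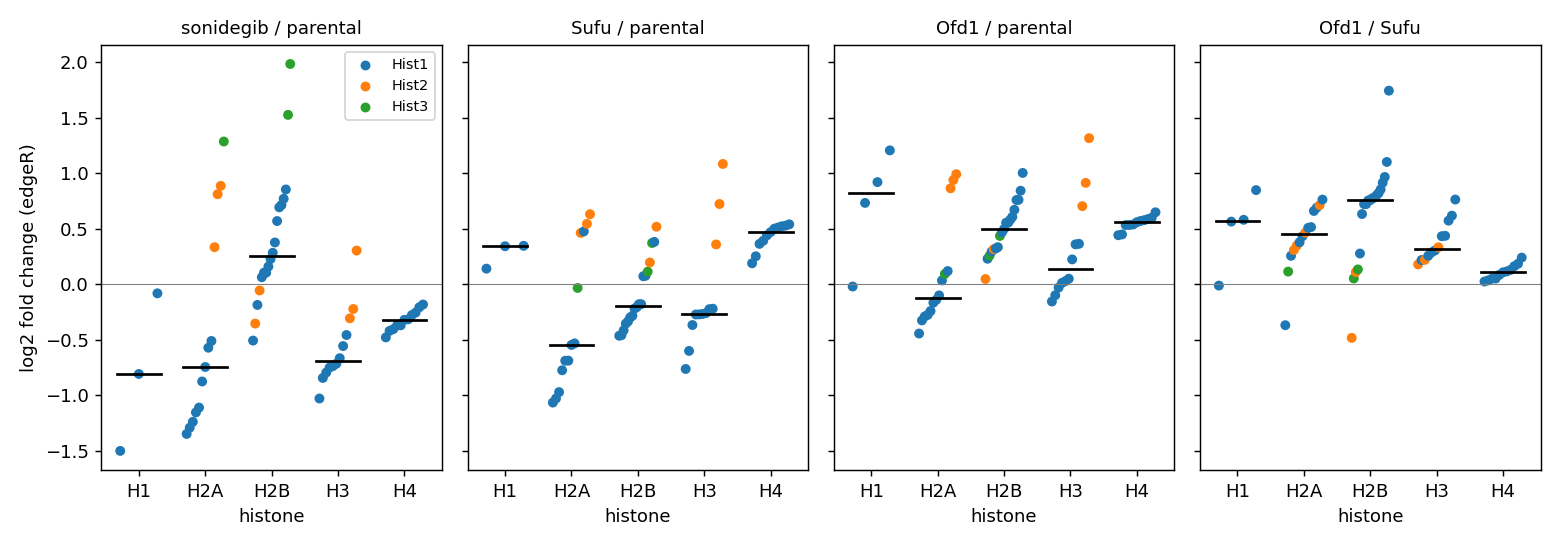
Each point is a tested histone gene placed by its log2 fold change (y axis) and histone class (x axis), coloured by cluster, with a panel for each comparison and a bar at each class median. The green Hist3 genes reach 1.28 to 1.98 after sonidegib, and the H4 genes stay within 0.44 to 0.65 in Ofd1 mutants, with no gene passing the test in any panel.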

How the data were processed

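The authors deposited 1 table of whole-number read counts, not normalized, with a row per gene symbol and a column for each of 11 libraries. Per the labels' protocols, a stranded poly(A) kit was used on 500 ng of RNA, and single-end reads were 75 bp long. STAR, DESeq2 and the build mm9 are named by the submitters' processing notes, with no version. The counting tool and its handling of strand and of reads with several matches are not stated by the labels or notes. A row with no gene name (0.0131% to 0.0192% of counts) was left out, and 0 columns belonged to another series.

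Libraries were grouped by the labels, which call them biological replicates without saying that they came from separate cultures, so p-values measure the spread between these libraries. The R14 libraries count as 2 in n although they share a clone. Counts were compared pairwise, two-sided, with edgeR 4.0.16 (R 4.3.3; TMM, filterByExpr, robust quasi-likelihood fit, Benjamini-Hochberg over all genes tested, threshold 0.05), and DESeq2 1.42.0 was an alternative. Levels are CPM with TMM factors over all 11 libraries. Limits for a count of 0 (3 counts, 0.0779 to 0.126 CPM by library) cover counting error only. The fits were tested on simulated data.

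Transcript lengths, ends, stem-loops and shared 75-base windows come from GENCODE M21 (GRCm38) by symbol. Lengths were found for 94.2% of tested genes.

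Histone genes named are the 10 highest, any that passed, and in each comparison the 3 largest positive and 3 largest negative log2 fold changes. Other genes came from lists, of which the 3 largest values, those that passed and Slbp could be named; a few single genes in counts of non-overlapping groups, and Hist1h1t, Hist1h2aa, Hist1h2bb and Hist2h2aa2, were named after their values were seen. The histone genes and all lists were chosen with earlier results of these data known. Alternatives were other scalings, no filter, 1 fit over all libraries, removal of the length trend, other length limits, leaving out each library, summing the R14 libraries and a replicate block. Counting genes with the same counts once was added after seeing the data.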

Additional observations from a re-analysis of the deposited data

Results flagged for a closer look

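Outlying libraries were looked for among the 54 levels and sums that had a group of 4, the Ofd1 mutants, and chance marks about 1 in 20 such groups. The first was Hist2h2ac, an H2A gene, at 0.309 CPM in the second R14 library (10 counts), against 0.714, 0.683 and 0.727 CPM in the first R14 library, R16 and R25. The second was the summed Hist2 level of 113 CPM in the first R14 library, against 77.0, 74.0 and 73.2 CPM in the second R14 library, R16 and R25, of which Hist2h2be gave 97.2 CPM in the first R14 library. Both cases set the 2 libraries of clone R14 apart from each other.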

How the results depend on the processing

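Medians over the histone genes depended most on single sonidegib libraries. The number called after sonidegib was 0, against 1 with DESeq2 and 0 to 3 with 1 library left out. The median log2 fold change after sonidegib was -0.32, against -0.84 with the length trend removed and -0.98 to 0.036 with 1 library left out, and the log2 ratio of summed levels ran from -0.27 (without sonidegib replicate 2) to 0.91. In Sufu mutants the median ran from -0.36 to 0.25, over 50 to 61 tested genes. In Ofd1 mutants 2 genes were called with DESeq2, and the median ran from 0.25 (without R25) to 0.53. Between Ofd1 and Sufu mutants the log2 ratio of summed levels ran from 0.00093 to 0.74 (without Sufu R13). The difference of very short transcripts between Ofd1 mutants and parental cells was -0.084 with a limit of 300 bases and -0.062 with median lengths, and between Ofd1 and Sufu mutants -0.0035 with median lengths. Single genes also changed sign: in Ofd1 mutants against parental cells Hist1h2ap ran from -0.72 to 0.023 and Hist1h2ag from -0.59 to 0.058 with 1 library left out, and against Sufu mutants Hist1h2ac from -0.78 to 0.21 and Hist1h1b from -0.090 to 0.22. Hist1h1b was also 0.017 with total counts, 0.0077 with no filter and 0.10 with the R14 libraries summed. The cause was not tested.

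Sonidegib and parental libraries share the numbers 1 and 2, but the labels do not say that these mark a pairing. Deviations of same-numbered libraries correlated at 0.26 and -0.32 across genes. With a replicate block on those 4 libraries 107 genes were called, against 0 without it, and 0 of them were histone genes (median log2 fold change -0.47, Hist3h2ba 1.58 with an edgeR adjusted p of 0.110).

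Depth limits single genes more than sums, as 38 of the 68 histone genes average under 1 CPM.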
